A study of Mus musculus with 12 samples.

Results

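The 5 genes described here encode the CD3 signalling chains of the T cell receptor (TCR) complex, Cd3d, Cd3e, Cd3g and Cd247, and the kinase Lck that phosphorylates them. They were taken by these symbols from the nCounter Mouse Metabolic Pathways panel and are 5 of its 748 endogenous genes. RNA came from T cells of subcutaneous KPC.Luc tumors, a model of pancreatic ductal adenocarcinoma, in female C57BL/6 mice aged 8 to 10 weeks. T cells were enriched by positive selection for CD90.2, a surface protein that T cells share with some other lymphocytes, to a stated purity of 80 to 85%. Treatment began 6 to 7 days after implantation and lasted 10 days. Each mouse had a daily subcutaneous peptide dose of 10 µg and, at intervals of 3 days, an intraperitoneal antibody dose of 200 µg. The peptide was either scrambled (Scram) or ANT008, an antagonist of the receptors for vasoactive intestinal peptide (VIP), and the antibody was either IgG or anti-PD-1 (aPD-1). Each pairing of a peptide with an antibody was given to 3 mice (groups written as Scram+IgG, ANT008+IgG, Scram+aPD-1, ANT008+aPD-1), and each of the 12 mice was read in 1 lane.

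The TCR itself has no signalling domain. It pairs with dimers of CD3 delta with epsilon, of CD3 gamma with epsilon and of the zeta chain encoded by Cd247, whose cytoplasmic tails carry the tyrosine motifs that Lck phosphorylates when the receptor binds antigen. The phosphorylated motifs recruit ZAP-70, and the CD3 chains are markers of T cells in tumors and other tissues.

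The lanes differed widely in the RNA they held. The 8 negative control probes set each lane's background, at 2 SD above their mean, and a lane was scaled by its geometric mean over those 3 housekeeping genes that exceeded background in all 12 lanes. The endogenous total ran from 5776 counts in ANT008+aPD-1 mouse 1 and 24813 in ANT008+aPD-1 mouse 3 to 1486646 in Scram+IgG mouse 3. The 5 genes together gave 20770, 535 and 3067 counts in Scram+IgG mice 1 to 3, 13918, 522 and 507 under ANT008+IgG, and 10898, 3648 and 265 under Scram+aPD-1. With ANT008+aPD-1 they gave 74, 2960 and 242 counts. Cd3d, Cd3g, Cd247 and Lck exceeded the background in 12 of 12 lanes and Cd3e in 11, so all 5 are among the 640 genes that were tested. In ANT008+aPD-1 mouse 1, Cd3e was below the background (8 counts against 9.94) and Lck barely above it (10 counts). Intervals given for single counts are 95% Poisson intervals and cover counting error only.

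Cd3d, the delta chain that pairs with epsilon, was counted 5185, 230 and 1123 times in Scram+IgG mice 1 to 3, 2950, 283 and 153 times under ANT008+IgG, 3346, 1018 and 134 times under Scram+aPD-1, and 18, 764 and 99 times under ANT008+aPD-1. Scaled by the housekeeping genes, these counts were 843, 219 and 176 under Scram+IgG, 469, 487 and 305 under ANT008+IgG, 595, 309 and 549 under Scram+aPD-1, and 649, 603 and 1191 under ANT008+aPD-1. On this scale the ANT008+aPD-1 mice lay above all mice of either single agent, while Scram+IgG mouse 1 lay within their range and the other two Scram+IgG mice far below it. With the negative control mean subtracted from Cd3d and the scaling kept, ANT008+aPD-1 mouse 1 was at 473, below Scram+aPD-1 mice 1 (593) and 3 (524). This order depends on the scaling of that lane, whose housekeeping counts include 12 for Dnajc14 against a background of 9.94. The group means were 814 ± 327 (SD, n = 3 mice) under ANT008+aPD-1, 484 ± 154 under Scram+aPD-1, 420 ± 100 under ANT008+IgG and 413 ± 373 under Scram+IgG, and the last 3 groups overlapped. The 18 counts of ANT008+aPD-1 mouse 1 have an interval of 10.7 to 28.4 counts, which is 384 to 1025 after scaling.

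Cd3e, the epsilon chain present in both CD3 heterodimers, was counted 3662, 59 and 362 times under Scram+IgG, 2505, 43 and 60 times under ANT008+IgG, 1532, 536 and 17 times under Scram+aPD-1, and 8, 492 and 24 times under ANT008+aPD-1. The scaled counts were 595, 56.2 and 56.6 under Scram+IgG, 398, 74.0 and 120 under ANT008+IgG, 273, 163 and 69.7 under Scram+aPD-1, and 288, 388 and 289 under ANT008+aPD-1. Scram+IgG mouse 1 and ANT008+IgG mouse 1 stood above every ANT008+aPD-1 mouse, and the remaining mice of those groups stood below every one. The value of 288 comes from a count below background, since the background of that lane becomes 358 after scaling. The means were 322 ± 57.5 (SD, n = 3 mice) under ANT008+aPD-1, 236 ± 311 under Scram+IgG, 197 ± 175 under ANT008+IgG and 168 ± 102 under Scram+aPD-1. The SD of the Scram+IgG and ANT008+IgG mice exceeded the differences between these group means.

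Cd3g, the gamma chain of the other CD3 heterodimer, was counted 6299, 74 and 504 times under Scram+IgG, 4653, 53 and 138 times under ANT008+IgG, 2385, 871 and 33 times under Scram+aPD-1, and 24, 875 and 52 times under ANT008+aPD-1. Its scaled counts were 1024, 70.5 and 78.8 under Scram+IgG, 739, 91.2 and 275 under ANT008+IgG, 424, 264 and 135 under Scram+aPD-1, and 865, 690 and 626 under ANT008+aPD-1. The Scram+IgG group spanned the widest range of the 4 groups, with its highest value 14.5 times its lowest, against 1.38 times under ANT008+aPD-1. As for Cd3e, Scram+IgG mouse 1 exceeded all ANT008+aPD-1 mice, and ANT008+IgG mouse 1 lay within their range. The means were 727 ± 124 (SD, n = 3 mice) under ANT008+aPD-1, 391 ± 548 under Scram+IgG, 369 ± 334 under ANT008+IgG and 275 ± 145 under Scram+aPD-1.

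Cd247, the zeta chain, was counted 1619, 62 and 303 times under Scram+IgG, 1139, 58 and 49 times under ANT008+IgG, 1078, 378 and 32 times under Scram+aPD-1, and 14, 282 and 28 times under ANT008+aPD-1. The scaled counts were 263, 59.0 and 47.4 under Scram+IgG, 181, 99.8 and 97.8 under ANT008+IgG, 192, 115 and 131 under Scram+aPD-1, and 505, 223 and 337 under ANT008+aPD-1. Every ANT008+aPD-1 mouse was above every mouse of either single agent, and Scram+IgG mouse 1 exceeded only ANT008+aPD-1 mouse 2. The highest Cd247 value, 505, rests on 14 counts in a lane with a background of 9.94, and its interval after scaling is 276 to 847. The means were 355 ± 142 (SD, n = 3 mice) under ANT008+aPD-1, 146 ± 40.7 under Scram+aPD-1, 126 ± 47.5 under ANT008+IgG and 123 ± 121 under Scram+IgG.

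Lck, the Src family kinase bound to the coreceptors CD4 and CD8, was counted 4005, 110 and 775 times under Scram+IgG, 2671, 85 and 107 times under ANT008+IgG, 2557, 845 and 49 times under Scram+aPD-1, and 10, 547 and 39 times under ANT008+aPD-1. The scaled counts were 651, 105 and 121 under Scram+IgG, 424, 146 and 214 under ANT008+IgG, 455, 256 and 201 under Scram+aPD-1, and 360, 432 and 469 under ANT008+aPD-1. For Lck mouse 1 of each of the other 3 groups reached or passed the ANT008+aPD-1 range, and their other mice were all below it. The means were 420 ± 55.3 (SD, n = 3 mice) under ANT008+aPD-1, 304 ± 134 under Scram+aPD-1, 292 ± 311 under Scram+IgG and 261 ± 145 under ANT008+IgG.

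**Figure D1:**
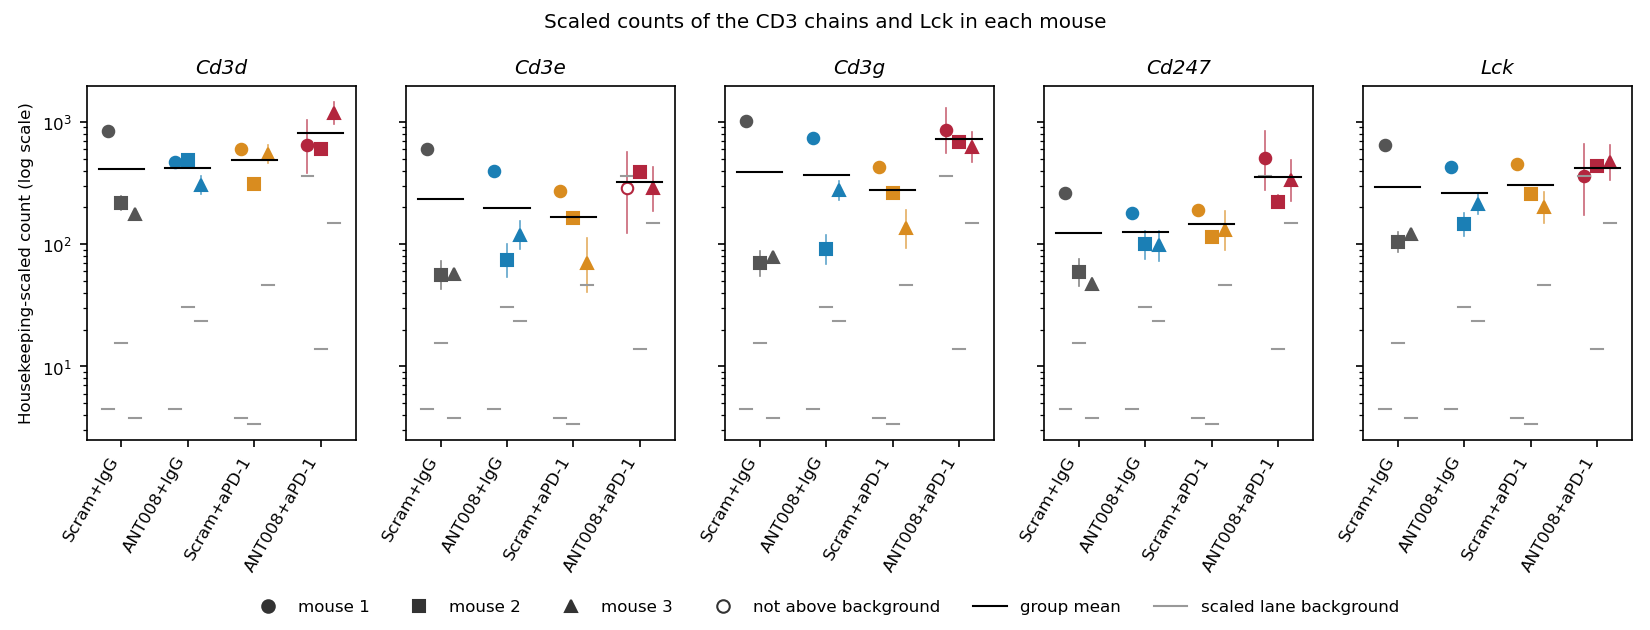
Housekeeping-scaled counts (log axis) of the 5 genes in each of the 12 mice, with the group mean (black line), the scaled background of each lane (gray line) and 95% Poisson intervals (vertical lines, counting error only); the open circle is the Cd3e count below background. Scram+IgG mouse 1 lies in or above the range of the ANT008+aPD-1 mice for all 5 genes. With positive control scaling or none the ANT008+aPD-1 group is the lower of these 2 groups for all 5, as for all 640 tested genes.

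As a share of all endogenous counts, which needs no housekeeping gene, the 5 genes made up 1.50%, 0.208% and 0.206% in Scram+IgG mice 1 to 3, 1.03%, 0.258% and 0.506% under ANT008+IgG, 0.736%, 0.549% and 0.283% under Scram+aPD-1, and 1.28%, 1.10% and 0.975% under ANT008+aPD-1. Scram+IgG mice 2 and 3 had the lowest shares of the 12 lanes and Scram+IgG mouse 1 a share several times as high. The endogenous totals include background, and in ANT008+aPD-1 mouse 1, where 79.1% of endogenous genes did not exceed it, the share of the 5 genes depends on it, so this lane is not ranked among the others. Scram+IgG mouse 1 and ANT008+IgG mouse 1 are the 2 lanes that the deposited export marks as FLAG without saying why. In bulk RNA, fewer T cells and less of these transcripts per T cell cannot be told apart.

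The comparison of ANT008+aPD-1 with Scram+IgG addresses what both agents together do to these transcripts. All 5 genes were higher with ANT008+aPD-1 under housekeeping scaling, with log2 fold changes of 0.98 for Cd3d (standard error 0.58), 0.47 for Cd3e (0.92), 0.88 for Cd3g (0.98), 1.44 for Cd247 (0.63) and 0.53 for Lck (0.68), but TMM scaling turned Cd3e to -0.04 and Lck to -0.01, and all 5 were lower with positive control scaling or none. Limma on log2 values gave higher values of 1.28, 1.35, 2.00, 1.88 and 1.04 in the same order. Their median in edgeR was 0.88, against 0.12 over all 640 tested genes. The median of all tested genes moved to -4.37 with the positive control probes and to -3.44 without scaling, and the median of the 5 genes lay 0.42 and 0.55 above it. None of the differences passed the test. The FDR from edgeR was 0.468 for Cd3d, 0.860 for Cd3e, 0.725 for Cd3g, 0.375 for Cd247 and 0.783 for Lck, and 0 of the 5 genes were below 0.1, as were 0 of all 640 (0%). At an unadjusted p below 0.05 edgeR gave 1 of the 5 genes, Cd247, against 82 of 640 (12.8%). DESeq2, which sets its own lane sizes, called 30 of the 640 genes, and limma on log2 values 0. None of the 5 was called by either. The 95% interval of the Cd247 difference was 0.06 to 2.81. None of the 5 genes separated the mice of these groups, against 87 of 640 genes (13.6%) that did in either direction, and in exact permutation tests of 3 mice against 3, where the smallest two-sided p is 0.1, p was 0.3 for Cd3d, 0.2 for Cd247 and 0.4 for the other 3.

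Scram+IgG mouse 1 decided this comparison. Without it the log2 fold changes were 2.05 for Cd3d, 2.54 for Cd3e, 3.27 for Cd3g, 2.65 for Cd247 and 1.91 for Lck. The FDR from edgeR was then 0.0347, 0.0593, 0.0373, 0.0210 and 0.0520 in the same order, so 5 of 5 genes passed the threshold, beside 84 of all 640 (13.1%). Without both lanes marked FLAG, 5 of 5 passed with an FDR from edgeR between 0.0180 and 0.0311, beside 83 of 640 (13%). Limma's voom with sample weights, which among these lanes gave the lowest weights to ANT008+aPD-1 mouse 2 (0.262) and Scram+IgG mouse 1 (0.341) and the highest to Scram+IgG mouse 3 (4.69), also called 5 of 5, beside 156 of 640 (24.4%). Leaving out Scram+IgG mouse 2 or mouse 3 instead lowered the median of the 5 genes to 0.39, with Cd3e at 0.01 and 0.00. Without the 2 shallow lanes, ANT008+aPD-1 mice 1 and 3, the log2 fold changes, from ANT008+aPD-1 mouse 2 alone on the assumption that it varies like the other groups, were 0.55 for Cd3d, 0.71 for Cd3e, 0.82 for Cd3g, 0.85 for Cd247 and 0.56 for Lck, with an FDR from edgeR between 0.885 and 0.890. With the negative control mean subtracted from the genes' counts and the scaling kept they were 0.84, 0.13, 0.72, 1.12 and 0.27.

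Set against ANT008+IgG, the combination shows what anti-PD-1 adds in mice that also receive the antagonist. The log2 fold changes were 0.96 for Cd3d (standard error 0.58), 0.71 for Cd3e (0.92), 0.96 for Cd3g (0.98), 1.40 for Cd247 (0.64) and 0.69 for Lck (0.68), all 5 higher with the combination except that all 5, like all 640 tested genes, were lower with the positive control probes or without scaling. The median of the 5 was 0.96, against -0.04 over all tested genes, and was 1.76 without ANT008+IgG mouse 1 and 0.50 without ANT008+IgG mouse 2. The mice of the 2 groups did not overlap for Cd3d and Cd247, 2 of 5 genes, against 87 of 640 (13.6%) in either direction (40 higher, 47 lower), and each had an exact permutation p of 0.1, the smallest that this design allows. They overlapped for Cd3e, Cd3g and Lck through ANT008+IgG mouse 1. No gene passed the test, with an FDR from edgeR between 0.578 and 0.831 for the 5 and 0 of 640 genes (0%) below 0.1. At an unadjusted p below 0.05 there was again 1 of the 5, Cd247, and 50 of 640 genes (7.81%). DESeq2 and voom called 5 genes each and limma on log2 values 0, and none of the 5 genes was called by these tools.

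The comparison with Scram+aPD-1 shows what the antagonist adds to anti-PD-1. Here Cd3d, Cd3e, Cd3g and Cd247 were each higher in every ANT008+aPD-1 mouse than in every Scram+aPD-1 mouse under housekeeping scaling, 4 of 5 genes. In the fit with the positive control probes or without scaling they were lower, as were all 640 tested genes. Under housekeeping scaling 76 of 640 (11.9%) separated the mice in either direction, 29 with the combination higher and 47 with it lower. With the negative control mean subtracted from the counts of the genes, but not from those of the housekeeping genes that scale the lane, this was lost for Cd3d and Cd3e, at 473 and 113 in ANT008+aPD-1 mouse 1 against 593 and 270 in Scram+aPD-1 mouse 1, and held for Cd3g and Cd247. As a share of endogenous counts Cd3e overlapped too. On housekeeping-scaled counts each of the 4 had an exact permutation p of 0.1. Lck overlapped, since Scram+aPD-1 mouse 1 lay above 2 of the 3 ANT008+aPD-1 mice. The log2 fold changes were 0.75 for Cd3d (standard error 0.58), 0.93 for Cd3e (0.93), 1.38 for Cd3g (0.99), 1.19 for Cd247 (0.63) and 0.47 for Lck (0.68), with a median of 0.93 against -0.04 over all tested genes. The FDR from edgeR was between 0.751 and 0.883, 0 of 640 genes were below 0.1 (0%), and 0 of the 5 and 40 of 640 (6.25%) had an unadjusted p below 0.05. DESeq2 called 5 genes and voom and limma on log2 values 0, none of them among the 5. The value of 288 for Cd3e in ANT008+aPD-1 mouse 1, from a count below background, is part of that separation.

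With ANT008 alone, the 5 genes differed little from Scram+IgG on average. The log2 fold changes were 0.03 for Cd3d (standard error 0.57), -0.25 for Cd3e (0.88), -0.08 for Cd3g (0.95), 0.04 for Cd247 (0.59) and -0.16 for Lck (0.66), with a median of -0.08 against 0.11 over all tested genes, and all 5 were below 0 with TMM, the positive control probes or no scaling but above 0 with limma on log2 values (0.22 to 0.56) and without the lanes marked FLAG (0.67 to 1.29). Of all 640 genes, 5.6% were above 0 with the positive control probes and 2.97% without scaling. The 95% interval reached from -2.15 to 1.99 for Cd3g and from -1.21 to 1.26 for Cd3d. Both intervals include 2-fold differences in either direction. The FDR from edgeR was 0.999 for the 5 genes, and 0 of 640 genes (0%) passed. At an unadjusted p below 0.05 there were 0 of the 5 and 3 of 640 (0.469%), and 0 of the 5 and 22 of 640 (3.44%) separated the mice. DESeq2 and limma on log2 values called 0 genes. Voom called 44 genes (6.88%), among them 1 of the 5, Cd3g, with a log2 fold change of 2.03 and an FDR of 0.0910. Without Scram+IgG mouse 1 the edgeR values were 1.09, 1.83, 2.31, 1.27 and 1.22, with an FDR of at least 0.449.

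With anti-PD-1 alone, Cd3d at 0.23 (standard error 0.57), Cd247 at 0.24 (0.59) and Lck at 0.06 (0.66) had log2 fold changes above 0 and Cd3e at -0.47 (0.88) and Cd3g at -0.50 (0.96) below 0, and all 5 were below 0 with the positive control probes or without scaling but above 0 with limma on log2 values (0.23 to 0.65) and without the lanes marked FLAG (1.29 to 1.89). Their median was 0.06, against 0.15 over all tested genes. Of all 640 genes, 2.97% were above 0 with the positive control probes and 7.34% without scaling. The FDR from edgeR was 0.988 for each, with 0 of 640 genes (0%) below 0.1, 0 of the 5 and 7 of 640 (1.09%) at an unadjusted p below 0.05, and 0 of the 5 and 26 of 640 (4.06%) without overlap. DESeq2 and limma on log2 values called 0 genes. Voom called 143 of 640 (22.3%), among them 5 of 5, with log2 fold changes between 1.31 and 1.85 that turn the sign of Cd3e and Cd3g. Without Scram+IgG mouse 1 the edgeR values were 1.29, 1.61, 1.89, 1.47 and 1.44, with an FDR of at least 0.287. The comparisons of each single agent and of the combination with Scram+IgG share the Scram+IgG mice, and the 3 comparisons of ANT008+aPD-1 share its mice, so their values are not independent of each other.

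The interaction asks whether the combination differs from the sum of the single agents on the log2 scale. It was 0.73 for Cd3d (standard error 0.81), 1.18 for Cd3e (1.28), 1.46 for Cd3g (1.37), 1.15 for Cd247 (0.87) and 0.63 for Lck (0.94), and below 0 for all 5 with the positive control probes or without scaling. The median was 1.15, against -0.17 over all tested genes. Of all 640 genes, 0.31% were above 0 with the positive control probes and 0.625% without scaling. No gene passed, with an FDR of 0.993 for each of the 5 from edgeR, 0 of 640 genes (0%) below 0.1, and 0 of the 5 and 9 of 640 (1.41%) at an unadjusted p below 0.05. DESeq2, voom and limma on log2 values called 0 genes too. Without Scram+IgG mouse 1 the interaction was below 0 for all 5 genes, at -0.34, -0.90, -0.94, -0.09 and -0.74.

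**Figure D2:**
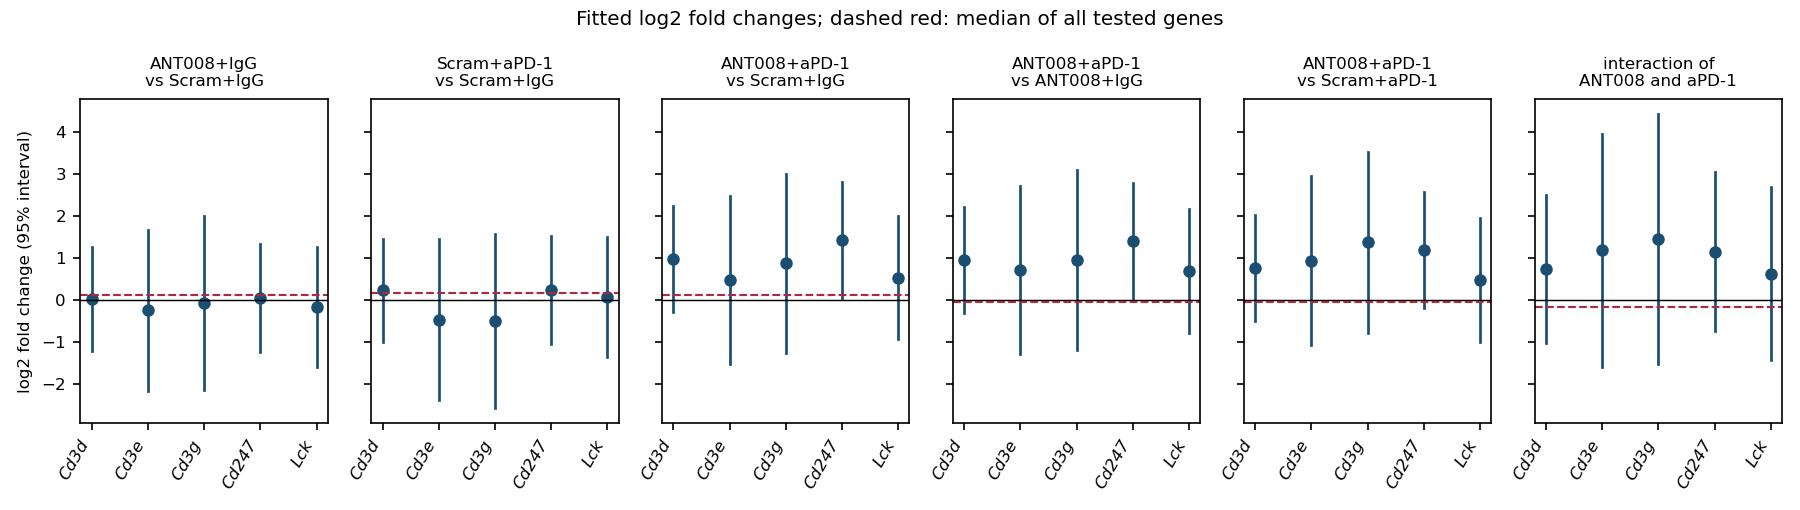
Fitted log2 fold changes of the 5 genes in the 6 contrasts from edgeR (points) with 95% intervals (lines), under housekeeping scaling, and the median of all 640 tested genes (dashed). The interval of Cd247 lies above 0 against Scram+IgG and against ANT008+IgG, and the other intervals include 0. With the positive control probes or without scaling the 5 genes are below 0 in each contrast. At most 7.34% of all 640 tested genes are above 0 in these fits.

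A ratio of genes within a lane does not depend on how the lane is scaled, and shows only whether genes differ unequally. Each gene was set against the geometric mean of the other 4 in the same lane. The log2 ratio of Lck was 0.10, 0.31 and 0.63 in Scram+IgG mice 1 to 3, 0.09, 0.12 and 0.27 under ANT008+IgG, 0.42, 0.38 and 0.32 under Scram+aPD-1, and -0.57, -0.01 and -0.15 under ANT008+aPD-1. All 3 ANT008+aPD-1 mice were below the other 9 mice, and the ratio of Lck to the CD3 chains was lower by 0.59 on the log2 scale between the means of ANT008+aPD-1 (-0.24 ± 0.29, SD, n = 3 mice) and Scram+IgG (0.35 ± 0.27). An exact permutation test of the F statistic over all 369600 arrangements of the 12 mice gave p = 0.00779, and 0.0390 after adjustment over the 5 ratios. In the shallow lanes Lck was counted 10 and 39 times, and the lowest ratio, -0.57 in ANT008+aPD-1 mouse 1, sets Lck at its background against a mean that includes Cd3e below background. Without these lanes, ANT008+aPD-1 mice 1 and 3, that group keeps 1 mouse, and its difference from the Scram+IgG mean was -0.36. Without ANT008+aPD-1 mouse 1 alone the difference was -0.43. The F statistic over the 4 groups then had an adjusted exact permutation p of 0.257 (0.0514 unadjusted), so the call is lost without that mouse. With 1 of the 12 mice left out at a time the adjusted exact permutation p ran from 0.0172 to 0.257 and was below 0.05 in 4 of 12 cases, those without Scram+IgG mouse 1, Scram+IgG mouse 3, ANT008+aPD-1 mouse 2 or ANT008+aPD-1 mouse 3. Arranging the mice only within their numbers gave an adjusted exact permutation p of 0.0781. After subtraction of the negative control mean the difference was -0.70, and the F statistic had an adjusted exact permutation p of 0.0357.

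None of the ratios of the CD3 chains passed this test. For Cd3d the log2 ratio ran from 0.27 in ANT008+IgG mouse 1 to 2.29 in ANT008+IgG mouse 2 (exact permutation p = 0.919 over the 4 groups), and both ends lay in the same group. For Cd3g the same mice were at the ends in the opposite order, with 1.10 in ANT008+IgG mouse 1 and -0.73 in ANT008+IgG mouse 2 (exact permutation p = 0.634). Cd3e ran from -1.59 in Scram+aPD-1 mouse 3 to -0.02 in ANT008+IgG mouse 1 (exact permutation p = 0.900). Cd247 ran from -1.53 in Scram+IgG mouse 1 to 0.04 in ANT008+aPD-1 mouse 1 (exact permutation p = 0.658). The count of Cd3d over that of Cd3g was thus 0.634 in ANT008+IgG mouse 1 and 5.34 in ANT008+IgG mouse 2, and that of Cd3d over Cd3e 1.18 in ANT008+IgG mouse 1 and 7.88 in Scram+aPD-1 mouse 3. Cd3d therefore did not keep a fixed count ratio to Cd3g or Cd3e between mice of the ANT008+IgG group, where Cd3d over Cd3e was 6.58 in mouse 2. The ratio of Cd3e over Cd3g varied less, from 0.333 in ANT008+aPD-1 mouse 1, where Cd3e was below background, to 0.811 in ANT008+IgG mouse 2. Counts of different probes are not comparable as levels, so only the spread of such a ratio between lanes is described.

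**Figure D3:**
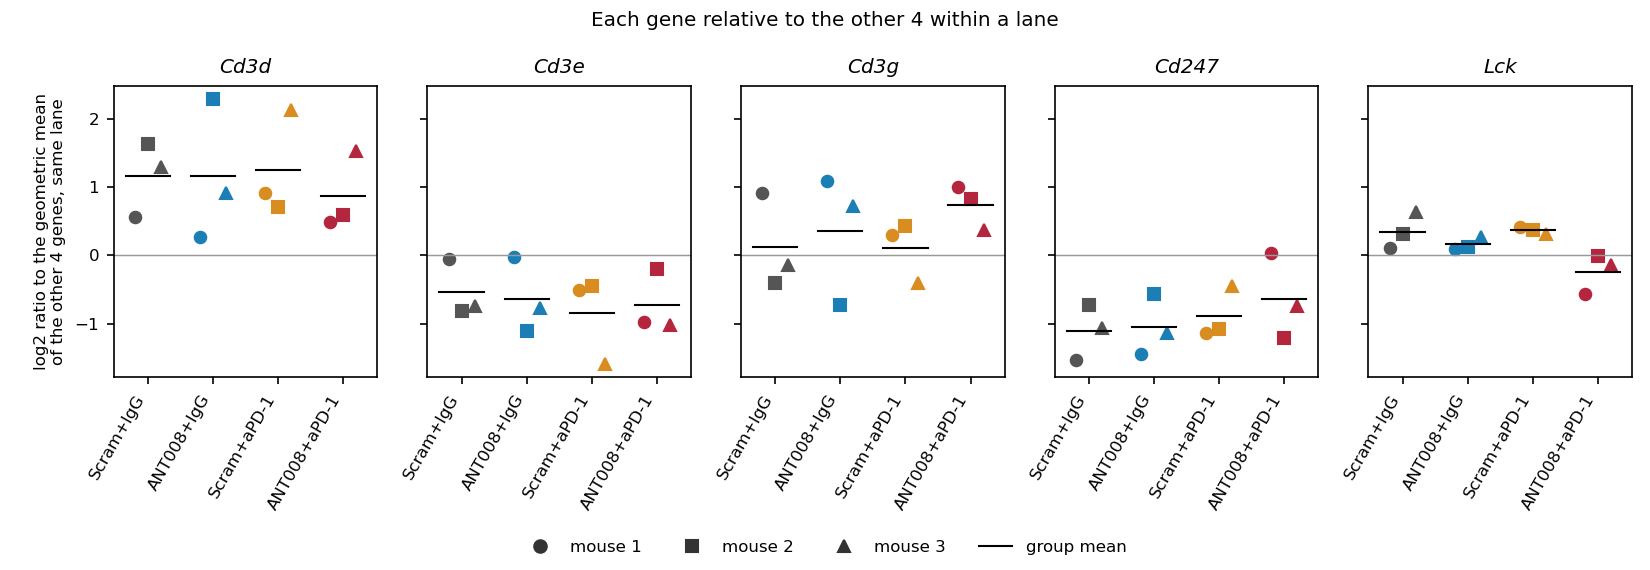
Log2 ratio of each gene to the geometric mean of the other 4 in the same lane, per mouse, with the group mean (line), which does not depend on the scaling of lanes. Lck lies between -0.57 and -0.01 in mice given ANT008+aPD-1 and between 0.09 and 0.63 in the other 9, and the groups overlap for the CD3 chains.

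Over the 12 mice the scaled values of the 5 genes, as log2(scaled count + 1), followed each other to different degrees. The Pearson correlation was 0.97 for Cd3e with Cd3g (Spearman rho 0.94), 0.97 for Cd3e with Lck (0.91) and 0.96 for Cd3g with Lck (0.86). Cd3d followed Cd3e and Cd3g less closely (r = 0.71 and 0.73, rho 0.71 and 0.74) and Cd247 more closely (r = 0.88, rho 0.94). The genes of a lane share its scaling, its depth and its cell composition, so that these values describe the lanes.

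The same measure was used to find the genes whose pattern was most like the mean of the 5 over the 12 mice, among the 138 other endogenous genes above background in all 12 lanes, whose median r was -0.20. The highest were Cxcr6, a chemokine receptor of tissue T cells (r = 0.955, rho 0.909), the chemokine Ccl5 (0.953, 0.937), Klrk1 (0.947, 0.930) and Klrd1 (0.946, 0.909), which encode the receptor chains NKG2D and CD94 of killer cells, and the chemokine Ccl4 (0.942, 0.909). Without the 2 mice farthest from the median of the 5 genes, Scram+IgG mice 2 and 3, r was between 0.903 and 0.925. Each of these 5 like genes was at its lowest in Scram+IgG mouse 2, as were Cd3e, Cd3g and Lck, while Cd3d and Cd247 were at theirs in Scram+IgG mouse 3. The scaled count of Klrk1 was 38.1 in Scram+IgG mouse 2 and 574 in Scram+IgG mouse 1, and that of Klrd1 was 80.9 and 980. These genes were picked as the highest of 138, and the points share scaling and depth.

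Of the 21 proximal kinases, phosphatases and adapters of TCR signalling listed beside Lck, 8 were on the panel and tested. Between ANT008+aPD-1 and Scram+IgG all 8 had a log2 fold change above 0 (below 0 with the positive control probes or without scaling, as for all 640 genes), with a median of 0.83 against 0.12 over all tested genes, and 0 of 8 passed an FDR of 0.1 in edgeR. They ran from 0.57 for Cbl, a ubiquitin ligase (standard error 0.52, FDR 0.656), to 2.00 for Trat1, a transmembrane adapter bound to the receptor complex (0.78, 0.337). The value of Trat1 is set by counts at background, with 10 in ANT008+aPD-1 mouse 1 (background 9.94) and 12 in mouse 3 (12.4), and Cbl was below background in mouse 1 with 7. Of 19 coreceptors and co-signalling receptors 13 were tested, 12 above 0 and 1 below, with a median of 0.99 and 0 past the FDR. The highest was the costimulatory receptor Cd28 at 2.13 (0.62, 0.309) and the lowest the coreceptor chain Cd8a at -0.31 (0.98, 0.928), which was below background in ANT008+aPD-1 mouse 1.

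The medians of the NF-kB, the Ras and MAPK and the PI3K branch lay closer to that of all genes. Of the 14 genes of the NF-kB branch 5 were tested, 3 above 0 and 2 below, with a median of 0.10, and the lowest was the subunit Nfkb2 at -0.39 (standard error 0.41, FDR 0.711 from edgeR). Of 16 genes of the Ras and MAPK branch 9 were tested, 3 above 0 and 6 below, with a median of -0.20. Of the 13 genes of the PI3K branch 13 were tested, 3 above 0 and 10 below, with a median of -0.39, from -0.63 for the kinase Pdpk1 (0.30, 0.390) to 0.50 for the regulatory subunit Pik3r1 (0.56, 0.726). The calcium and NFAT branch had 1 of 15 genes on the panel, the phospholipase Plcg1, at -0.67 (0.33, 0.425). Pdpk1, Pik3r1 and Plcg1 were below background in ANT008+aPD-1 mouse 1, with 2, 5 and 5 counts, and Pdpk1 and Plcg1 also in mouse 3, with 5 and 8, so their fold changes rest in part on counts that background can give. In these branches 0 genes were below an FDR of 0.1 in edgeR, and those above 0 turned below 0 with the positive control probes or without scaling.

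With ANT008 alone the median log2 fold change was 0.02 over the 8 proximal genes and 0.03 over the 13 receptors, and with anti-PD-1 alone 0.43 and 0.45, each against Scram+IgG under housekeeping scaling. Against ANT008+IgG the combination had medians of 0.90 and 0.92, and against Scram+aPD-1 of 0.43 and 0.85. No gene of either list passed an FDR of 0.1 in edgeR in any of these comparisons. Within lanes, the geometric mean of the 5 genes over that of the other T cell genes above background in all 12 lanes (Cd8b1, Cd28, Zap70 and Lat) gave log2 ratios of 0.88, -0.35 and -0.14 under Scram+IgG, 1.15, -0.66 and 0.66 under ANT008+IgG, 0.32, 0.39 and -1.39 under Scram+aPD-1, and 0.03, 0.70 and -0.51 under ANT008+aPD-1. The groups overlapped throughout, and the widest gap was between Scram+aPD-1 mouse 3 and ANT008+IgG mouse 1. The mean of ANT008+aPD-1 was 0.05 below that of Scram+IgG on the log2 scale with all 12 mice, a difference of -0.05. It rose to 0.32 without Scram+IgG mouse 1, 0.24 without ANT008+aPD-1 mouse 3 and 0.57 without both shallow lanes. It fell to -0.37 without ANT008+aPD-1 mouse 2, -0.29 without Scram+IgG mouse 2 and -0.19 without Scram+IgG mouse 3.

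Lists of genes for other cells were read in the same lanes. Of the 22 listed T cell genes 13 were on the panel, led by Zap70, and none of the 4 defining ones (Cd2, Cd5, Trac and Trbc1) is among them. Their summed scaled count was 3536, 1041 and 925 in Scram+IgG mice 1 to 3, 2287, 2024 and 1399 under ANT008+IgG, 3010, 1600 and 3725 under Scram+aPD-1, and 3784, 2987 and 5331 under ANT008+aPD-1. Of these 13 genes 5 exceeded background in ANT008+aPD-1 mouse 1 and 10 in mouse 3. Of 9 NK cell genes 7 were on the panel, led by Nkg7. They summed to 6133, 1400 and 1617 under Scram+IgG, 3230, 2881 and 1890 under ANT008+IgG, 4758, 1631 and 5820 under Scram+aPD-1, and 5370, 5186 and 7244 under ANT008+aPD-1, and the 1 defining NK gene on the panel, Ncr1, was at or below background in ANT008+aPD-1 mice 1 and 3 only. Of 22 myeloid genes 8 were on the panel, led by Cd68. They summed to 2224, 542 and 902 under Scram+IgG, 2236, 1711 and 942 under ANT008+IgG, 2762, 1231 and 2160 under Scram+aPD-1, and 2667, 2376 and 2864 under ANT008+aPD-1. The sums of all 3 lists were higher in Scram+IgG mouse 1 than in the other 2 Scram+IgG mice, as the 5 genes were. In ANT008+aPD-1 mouse 1 the T cell, NK cell and myeloid sums come from 105, 149 and 74 raw counts. They cover 13, 7 and 8 genes, and the negative control mean of that lane is 4.88 counts per probe. A large part of these sums can thus be background, and they are not ranked against the other lanes.

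Of the 2 defining myeloid genes on the panel, Cd14 and Itgam, only Itgam in ANT008+aPD-1 mouse 1 did not exceed background, a lane in which 2 of the 8 myeloid genes did. The median log2 fold change of ANT008+aPD-1 over Scram+IgG was 0.97 for the T cell list, 0.84 for the NK cell list and 0.94 for the myeloid list under housekeeping scaling (below 0 for all 3 with the positive control probes or without scaling), beside 0.88 for the 5 genes. The defining myeloid gene Cd14 had a log2 fold change of 2.36 (standard error 0.53) and an FDR from edgeR of 0.242, the smallest of the 640 genes in this comparison. For the 2 tested B cell genes the median was 1.97, and Pdgfrb was at 1.37 (1.19). No gene of these lists passed an FDR of 0.1 in edgeR. Of 9 B cell genes 4 were on the panel, led by Btk, and the defining gene Ms4a1 was at or below background in 9 of the 12 lanes. The B cell list summed to 117, 48.6 and 71.9 under Scram+IgG, 122, 77.4 and 87.8 under ANT008+IgG, 172, 102 and 205 under Scram+aPD-1, and 433, 134 and 277 under ANT008+aPD-1, where 0, 1 and 1 of the 4 genes exceeded background and the 433 comes from 12 raw counts. Of 11 fibroblast genes only Pdgfrb was on the panel, with 71, 9 and 85 raw counts under Scram+IgG, 161, 8 and 13 under ANT008+IgG, 42, 23 and 9 under Scram+aPD-1, and 3, 4 and 4 under ANT008+aPD-1. It was at or below background in 6 of the 12 lanes, which are the 3 ANT008+aPD-1 lanes, Scram+IgG mouse 2, ANT008+IgG mouse 2 and Scram+aPD-1 mouse 3. Of the 9 genes listed for tumor epithelium and the 5 for endothelium 0 were on the panel. No defining gene on the panel was at 0 counts in any lane, and the part of other cells in the values of the 5 genes was not tested.

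In the RefSeq annotation of GRCm38.p6, Cd3g, Cd3d and Cd3e are direct neighbours in that order, while Cd247 and Lck lie elsewhere. Because the CD3 chains are related proteins from adjacent genes, the probe targets were compared with each other, and whether probes share molecules was not tested. The targets given by the vendor's panel definition, 100 bases each, are printed with capitals marking the longest run of bases that a target shares with another of the 5.
Cd3d: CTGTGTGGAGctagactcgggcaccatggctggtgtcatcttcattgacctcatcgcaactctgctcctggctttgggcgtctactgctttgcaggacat
Cd3e: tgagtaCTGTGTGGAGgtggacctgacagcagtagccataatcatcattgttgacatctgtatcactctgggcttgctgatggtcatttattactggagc
Cd3g: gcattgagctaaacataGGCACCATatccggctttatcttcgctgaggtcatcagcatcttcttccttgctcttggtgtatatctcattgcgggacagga
Cd247: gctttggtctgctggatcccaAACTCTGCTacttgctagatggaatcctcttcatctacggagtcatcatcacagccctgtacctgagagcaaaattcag
Lck: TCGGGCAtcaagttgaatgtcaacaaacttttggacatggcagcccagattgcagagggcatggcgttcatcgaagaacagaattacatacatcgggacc

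The longest shared run was 10 bases, between Cd3d and Cd3e, and the runs shared by the other 3 targets, each with Cd3d, were 8 bases for Cd3g, 9 for Cd247 and 7 for Lck. Laid side by side without gaps, Cd3d and Cd3g shared at most 62 of 100 bases, the most of the 10 pairs, and Cd3e and Lck 31, the fewest. With the other targets of the panel the longest shared runs were 11 bases for Cd3d, 10 for Cd3e, 12 for Cd3g, 14 for Cd247 and 11 for Lck.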

How the data were processed

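The authors deposited raw counts per probe and lane, exported without background subtraction, scaling or pooling, and the vendor's panel definition with the probe targets. The sources used here name no normalization and no test for single genes. The sample titles gave group and mouse number, and lanes were matched to them by the number and the group word, which the lane names shorten for the 2 groups with anti-PD-1. Counts were taken for Cd3d, Cd3e, Cd3g, Cd247 and Lck in every lane and contrast. The 640 endogenous genes above background (mean plus 2 SD of 8 negative control probes) in 3 lanes or more entered quasi-likelihood F tests of edgeR 4.0.16 under R 4.3.3 on the counts, with the geometric mean of Dnajc14, Oaz1 and Ubb as lane size, the 4 groups in 1 fit, no covariates, and Benjamini-Hochberg adjustment over all 640 genes. The call was an FDR below 0.1. Exact permutation tests were two-sided and made in Python 3.11.15. The fits were tested on simulated data.

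Other genes named are highest or lowest in a TCR signalling list, the most abundant gene of each cell type list, and the 5 genes most correlated with the mean of the 5. The members and the lists were chosen with earlier results of these data known, so no p is given for a list or a score over the members, and the adjustment of the within-lane ratios covers the 5 ratios but not the choice of the genes. Alternatives were 5 other lane sizes (TMM, all housekeeping genes, the endogenous total, positive control probes, none), subtraction of the negative control mean from the tested counts with the scaling kept, 2 other filters of genes, DESeq2 1.42.0, limma 3.58.1 on log2(scaled count + 1), voom with sample weights, a fit of the compared groups alone, the mouse number as a block, and lanes left out. DESeq2 set its own lane sizes from the tested genes, so it differs from edgeR in scaling as well as in the test. RefSeq (GRCm38.p6) was used for names and neighbours and held 5 of 5 symbols. No coordinates are given, since the panel names no genome build. For lanes of a group, the chi-square of their counts was 3.1 to 354.6 times its degrees of freedom, a comparison with counting error alone, made only to see whether a lane was deposited more than once.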

Additional observations from a re-analysis of the deposited data

How the results depend on the processing

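The count of 0 genes at an FDR below 0.1 held in each contrast under TMM, positive control, unscaled and all-housekeeping lane sizes, both gene filters, background subtraction, limma on log2 values, without the 2 shallow lanes and, for the comparisons of 2 groups, in a fit of these groups alone. Limma's voom with sample weights called 44 genes for ANT008+IgG, 143 for Scram+aPD-1 and 156 for the combination against Scram+IgG, and 5 for the combination against ANT008+IgG. DESeq2 called 30, 5 and 5 genes for the combination against Scram+IgG and then against either single agent, ANT008 first, and scaling by the endogenous total 1 for the first of these, none among the 5. Without the lanes marked FLAG 83 were called against Scram+IgG. With 1 mouse left out the counts for the combination ran from 0 to 84 against Scram+IgG, 0 to 26 against ANT008+IgG and 0 to 35 against Scram+aPD-1, and from 0 to 1 for the interaction. The high ends came without Scram+IgG mouse 1 for the first and without ANT008+aPD-1 mouse 2 for the others. Leaving out ANT008+aPD-1 mouse 2 also gave 68 of 640 genes against Scram+IgG, with 0 of the 5 among them.

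The median of the 5 genes with voom was 1.26 for ANT008+IgG, 1.55 for Scram+aPD-1, 2.30 for the combination against Scram+IgG and -0.70 for the interaction. Without the FLAG lanes it was 0.90 for ANT008+IgG, 1.47 for Scram+aPD-1, 2.55, 1.74 and 0.93 for the combination against Scram+IgG, ANT008 alone and anti-PD-1 alone, and 0.08 for the interaction, where 2 of 5 signs turned. With the positive control probes it was -3.96, -3.50 and -2.95 for the combination in the same order, and -2.30 for the interaction. Unscaled lanes gave -2.89, -2.26, -2.20 and -1.40. With 1 mouse left out it ran from -0.70 to 1.27 for ANT008+IgG, -0.35 to 1.47 for Scram+aPD-1, 0.39 to 2.54, 0.50 to 1.76 and 0.85 to 1.46 for the combination in the same order, and -0.74 to 1.55 for the interaction. Of single genes, voom turned the sign of Cd3e (1.53), Cd3g (2.03) and Lck (1.08) with ANT008+IgG, of Cd3e (1.66) and Cd3g (1.85) with Scram+aPD-1, and of 4 of 5 for the interaction. Limma on log2 values and the replicate block turned the same genes for each single agent, with values of the 5 genes from 0.22 to 0.56 and 0.10 to 0.42 for ANT008+IgG and from 0.23 to 0.65 and 0.11 to 0.56 for Scram+aPD-1.

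Without the 2 shallow lanes the within-lane difference between the combination and Scram+IgG was 0.33 for Cd3e, -0.10 for Cd247, -0.36 for Lck and 0.57 for the 5 genes against the other T cell genes. With 1 mouse left out it ran from -0.46 to 0.045 for Cd3e, -0.71 to -0.43 for Lck and -0.37 to 0.32 for the 5 genes against the others. For these changes the cause was not tested.

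With the replicate block 0 genes were called in each of the 6 contrasts. The log2 fold changes for the combination against Scram+IgG were then 1.23, 1.45, 1.92, 1.80 and 1.11 (FDR from edgeR 0.131 to 0.311). The Lck ratio difference between these groups was -0.59, as without the block. The F statistic of that ratio over the 4 groups, with mice arranged only within their numbers, had an adjusted exact permutation p of 0.0781. The sample titles do not say whether mice of the same number were handled together, and the correlations between their lanes do not settle it. Among the lanes numbered 1 they ran from -0.25 to 0.78. Over 18 pairs of same-numbered lanes the correlation of deviations from the group means ran from -0.64 to 0.78, 7 were above 0.1, and 3 of 12 lanes were closest to one with their own number. Depth limits the values of ANT008+aPD-1 mice 1 and 3, where the 5 genes gave 74 and 242 counts.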
